A study of Homo sapiens with 5 samples.

Results

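The genes described here are 10 genes of the Hippo pathway and its YAP/TAZ-TEAD output, out of 64837 entries counted in the series, of which 58780 are genes of GENCODE release 29. They were taken by name and are the secreted proteins CTGF and CYR61 (now called CCN2 and CCN1), the coactivators YAP1 and WWTR1 (the gene of TAZ), the DNA-binding factors TEAD1, TEAD2 and TEAD4, and LATS2, AMOTL2 and AJUBA. All 10 names were found in the authors' gene table, and each was joined by its identifier to the read counts. The cells were NCI-H209, an established human small cell lung cancer (SCLC) line. The 3 control libraries came from untreated cells and the 2 co-cultured libraries from cells kept for 24 h beneath a Transwell insert that held human brain microvascular endothelial cells (HBMECs), so that the cell types shared medium across a porous membrane. The line was grown in RPMI medium with fetal bovine serum, and the HBMECs in that medium with Nu-serum besides. Whether the controls had an insert, and the medium used during co-culture, were not stated in the sources used here. Nothing in the labels says whether libraries of a group came from separate cultures, so the p-values measure the spread between these libraries, which may be technical. The comparison asks what sharing medium with brain endothelium changes in the tumor cells.

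YAP1 and TAZ have no DNA-binding domain and act on genes through the TEAD factors. The kinases LATS1 and LATS2, switched on by the kinases encoded by STK3 and STK4, phosphorylate YAP1 and TAZ and keep them in the cytoplasm, and cell contact, cell tension and serum factors set how active this cascade is. CTGF and CYR61, secreted matricellular proteins that bind integrins, are the targets most often read as output, and LATS2 and AMOTL2 are both targets and inhibitors of YAP1. Neuroendocrine SCLC lines are known for low or silent YAP1.

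The stretch before the CTGF start is shown first because it carries the TEAD motif GGAATG, and 3 copies of it lie there. The sequence table of RefSeq (GRCh38.p14) held windows for 7 of the 10 genes, 11 windows in all, and CYR61, TEAD1 and TEAD4 were missing from it. The motif or its reverse complement CATTCC occurred in the 250 bases before the start in 4 of these windows, 1 each for CTGF, YAP1, AMOTL2 and AJUBA, and in 11.9% of all 35116 windows. At least 3 copies occurred in 29 windows (0.0826%), that of CTGF among them, with copies that began 169, 104 and 95 bases before the start. A match of letters says nothing of whether the site was bound in these cells. The CTGF sequence lies at chr6:131951374-131951621 on the minus strand, and the YAP1 site at chr11:102110273-102110302 on the plus strand. The AMOTL2 site lies at chr3:134374499-134374528 and the AJUBA site at chr14:22976884-22976913, each on the minus strand before the downstream one of 2 listed starts. The sites of YAP1, AMOTL2 and AJUBA overlap annotated exons of any gene, and that of CTGF does not. The YAP1 site lies before the GENCODE start of YAP1 at 102110461, so that exon is not one of YAP1. Those of AMOTL2 and AJUBA lie within the spans of their own genes. They are given in the direction of transcription, with the motif in capitals.
CTGF: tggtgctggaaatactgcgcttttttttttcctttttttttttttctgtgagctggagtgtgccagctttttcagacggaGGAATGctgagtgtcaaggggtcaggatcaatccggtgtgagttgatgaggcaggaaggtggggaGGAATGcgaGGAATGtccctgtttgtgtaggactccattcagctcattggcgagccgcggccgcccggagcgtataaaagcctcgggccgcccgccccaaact
YAP1: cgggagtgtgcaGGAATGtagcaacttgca
AMOTL2: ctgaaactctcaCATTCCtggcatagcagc
AJUBA: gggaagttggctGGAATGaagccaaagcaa

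The libraries held 15457071 to 19157348 counts on genes, and 3 counts, taken as the floor for a single gene, stood for 0.157 to 0.194 CPM, the usual rate of counts for a library's size. Floors cover counting error only. Levels are CPM scaled by TMM factors, and levels of different genes are compared only per kilobase of exon. Unmapped reads made up 8.13% to 8.48% of control and 15.9% to 16.8% of co-cultured libraries. Of 18 neuroendocrine markers 17 could be tested, with INSM1 at 578 CPM in control cells, while CHGA had at most 1 count in any library. The summed level of these markers ran from 2993 to 3587 CPM in control and from 4129 to 4156 CPM in co-cultured cells, and 7 were called higher and 3 lower, beside 18.4% and 15% of all genes tested. ELAVL3, SCG2 and SYP had log2 fold changes of 0.87, 0.86 and 0.57, while STMN2, DDC and DLL3 had -1.12, -0.58 and -0.35, and STMN2 was the marker past 2-fold. The part of these differences in the results below was not tested.

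CTGF and AJUBA rose about as steeply as each other in co-cultured cells, WWTR1 and TEAD4 rose modestly, and AMOTL2 fell. YAP1, TEAD1 and CYR61 did not pass the test. TEAD2 and LATS2 were too low to be tested. At an edgeR adjusted p under 0.05, 4 of the 8 tested genes were higher and 1 was lower, where 33.4% of the 20360 genes tested were called in either direction, 18.4% higher and 15% lower. The count of higher genes fell from 4 to 2 when either co-cultured library was left out, since WWTR1 and TEAD4 then missed the threshold. The study's criterion was an absolute fold change above 1 and a p under 0.05. The fold change was taken here as log2 and the p as unadjusted. By this criterion CTGF and AJUBA were upregulated and AMOTL2 downregulated, against 5.44% of all genes up and 5.01% down. The co-cultured libraries lay above every control for 4 of the 8 and below every control for 1, and over all genes tested the groups did not overlap for 59.4%. The median log2 fold change of the 8 was 0.54, that of all tested genes -0.03.

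**Figure D1:**
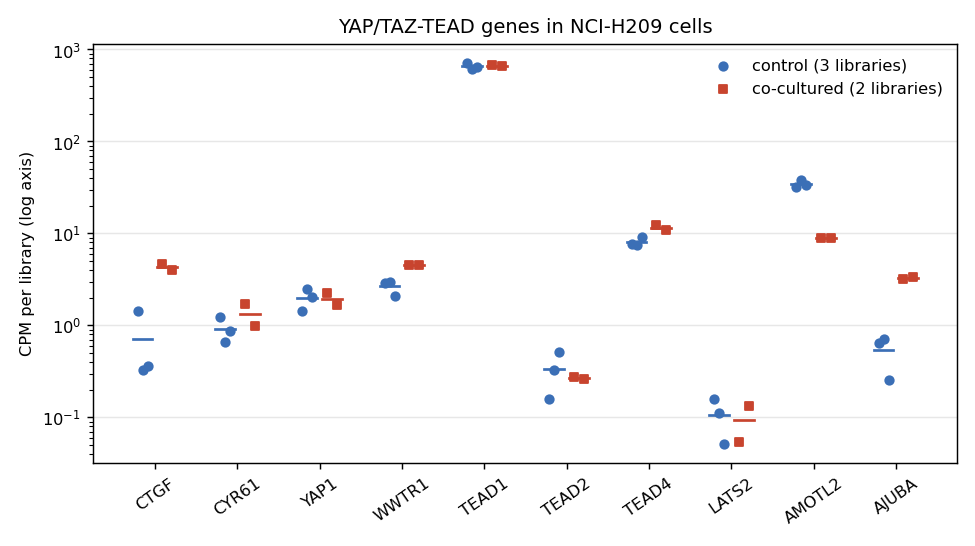
CPM of each gene in each library on a log axis, with circles for the 3 control libraries, squares for the 2 co-cultured libraries and short lines at the group means. CTGF, AJUBA, WWTR1 and TEAD4 have both squares above all circles, AMOTL2 has both below, and TEAD1 stands far above the rest at 606 to 712 CPM in every library.

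CTGF, on chromosome 6 from 131948176 to 131951373, had 27, 6 and 7 counts in control against 86 and 60 in co-culture. Its level was 1.43, 0.331 and 0.358 CPM in control and 4.69 and 3.96 CPM in co-culture. Control replicate 1 was the highest control by far, and still below each co-cultured library. The mean was 6.11-fold higher in co-culture and the log2 fold change was 2.6 (standard error 0.47, 95% interval 1.53 to 3.67, edgeR adjusted p = 0.00316), the 86th largest rise of all genes tested. That replicate held 27 of the 40 control counts, and the estimate was 3.63 without it and 2.28 without either of the other controls. Over all leave-one-out fits the highest edgeR adjusted p was 0.0447, without co-cultured replicate 1. CTGF would not have passed the filter on low counts by its controls alone, where only replicate 1 exceeded 7 counts. It entered the test through the co-cultured libraries, so its call and rank depend on the group where it is high. A bulk library does not tell apart a larger share of cells that make CTGF from more CTGF RNA in each cell.

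CYR61, a CCN family relative of CTGF, lies on chromosome 1 from 85580761 to 85583962. It had 23, 12 and 17 counts in control against 31 and 15 in co-culture, or 1.22, 0.662 and 0.869 against 1.69 and 0.989 CPM. The groups overlapped, since co-cultured replicate 2 fell among the controls. Its log2 fold change was 0.56 with an interval from -0.32 to 1.44 (edgeR adjusted p = 0.3), so that a rise of up to that size was not excluded at this depth. Reads on the opposite strand made up 40.2% of its reads in control and 16.4% in co-culture, with 15, 11, 9, 7 and 2 such reads in the 5 libraries, and no annotated gene overlaps CYR61. With both strands counted, the log2 fold change was 0.14. The ratio of CTGF to CYR61 counts was 1.17, 0.5 and 0.412 in control against 2.77 and 4.0 in co-culture. The ratio thus separated the groups, in a design whose smallest possible p by exact permutation is 0.1. NOV, the other member of this family that could be tested, had 99, 40 and 33 counts against 43 and 43 (log2 fold change -0.24, edgeR adjusted p = 0.713). WISP1, WISP2 and WISP3 never passed 8 counts and were not tested. On its opposite strand WISP1 had 5, 10 and 16 reads in control against 80 and 79 in co-culture. Over the 5 libraries WISP2 had 19 to 35 such reads and WISP3 had 72 to 108. The source of these reads was not tested. CTGF made up 11.4% to 19.9% of the summed level per kilobase of CTGF, CYR61 and NOV in control and 53.6% to 56.1% in co-culture.

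YAP1 (chromosome 11, 102110461 to 102233423) was low in every library, with 27, 45 and 40 counts in control against 41 and 25 in co-culture. Its level was 1.99 ± 0.528 CPM over the controls (SD, n = 3) and 1.94 ± 0.416 CPM over the co-cultured libraries (SD, n = 2). The log2 fold change was -0.02, with an interval from -0.72 to 0.68 (edgeR adjusted p = 0.966). The groups overlapped fully, and the data allow a change of up to those bounds in either direction.

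WWTR1 (chromosome 3, 149517235 to 149736714), whose product TAZ acts like YAP1, had 55, 54 and 41 counts in control against 83 and 69 in co-culture. These are 2.92, 2.98 and 2.10 CPM against 4.53 and 4.55 CPM, with no overlap. The log2 fold change was 0.77 (standard error 0.23, interval 0.26 to 1.28, edgeR adjusted p = 0.0276). That call was lost with DESeq2 (adjusted p = 0.0592), with the replicate block (edgeR adjusted p = 0.142) and without control replicate 3 or either co-cultured replicate. Per kilobase of exon, YAP1 and WWTR1 were on a par in control cells, with ratios of WWTR1 to YAP1 of 1.52, 0.898 and 0.767, and the ratios in co-culture were 1.51 and 2.07.

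TEAD1 (chromosome 11, 12674591 to 12944483) was by far the most abundant of the 10. It had 10986 to 13413 counts in control against 12273 and 10064 in co-culture. Its level was 653 ± 53.9 CPM in the controls (SD, n = 3) and 667 ± 4.24 CPM in co-culture (SD, n = 2). The log2 fold change was 0.03 with an interval from -0.18 to 0.24 (edgeR adjusted p = 0.826). Per kilobase it exceeded 97% of the 13697 protein-coding genes tested in control cells, and the level of all TEAD genes together was 84.5 to 132 times that of YAP1 and WWTR1 together in the 5 libraries.

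TEAD4 (chromosome 12, 2959330 to 3040673) had 145, 134 and 177 counts in control against 225 and 164 in co-culture, or 7.70, 7.40 and 9.05 against 12.3 and 10.8 CPM. The groups did not overlap, and the log2 fold change was 0.52 (standard error 0.15, interval 0.18 to 0.86, edgeR adjusted p = 0.0262). The call was lost under upper-quartile scaling (edgeR adjusted p = 0.0505) and without control replicate 2 or either co-cultured replicate. TEAD2 (chromosome 19, 49340595 to 49362457) had 3, 6 and 10 counts in control against 5 and 4 in co-culture and was removed by the filter on low counts. TEAD3, which completes the family, had 183 to 275 counts in control against 270 and 191 in co-culture (log2 fold change 0.21, edgeR adjusted p = 0.367). Of the level per kilobase of the TEAD family, TEAD1 held 86.3% to 91.3% in the 5 libraries and TEAD2 at most 0.241%. TEAD4 held 4.46% to 5.60% in control and 6.47% to 7.16% in co-culture.

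AMOTL2 (chromosome 3, 134355874 to 134375479), a motin that binds YAP1 and holds it at junctions and actin, had 598, 682 and 656 counts in control against 165 and 134 in co-culture. These are 31.7, 37.6 and 33.5 CPM against 9.0 and 8.84 CPM. The co-cultured values were nearly the same as each other and far below each control, with a mean 3.85-fold lower. The log2 fold change was -1.94 (standard error 0.12, interval -2.22 to -1.67, edgeR adjusted p = 2.68e-05), the 37th smallest p of the 20360 genes. Leaving out each library in turn kept it between -1.99 and -1.87. A pseudogene on the same strand within AMOTL2, RPL39P5, was counted apart from it, with at most 18 counts in any library. AMOTL1, another motin, rose by 0.39 on the log2 scale (edgeR adjusted p = 0.00412), a call lost without co-cultured replicate 1, and AMOT had a log2 fold change of 0.04. AMOTL2 held 20.2% to 23.6% of the level per kilobase of these 3 genes in control and 5.25% to 5.58% in co-culture.

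AJUBA (chromosome 14, 22971174 to 22982642), a LIM-domain protein that binds LATS kinases and lowers their activity, had 12, 13 and 5 counts in control against 59 and 51 in co-culture. Its level was 0.637, 0.718 and 0.256 CPM in control and 3.22 and 3.36 CPM in co-culture, with a wide gap between the groups and a mean 6.13-fold higher. The log2 fold change was 2.61 (standard error 0.36, interval 1.8 to 3.42, edgeR adjusted p = 0.000825), the 85th largest rise and next to that of CTGF. In control cells its level per kilobase exceeded that of 2% of tested protein-coding genes. Of its relatives, LIMD1 rose by 0.57 on the log2 scale and WTIP had a log2 fold change of -0.20 (edgeR adjusted p = 0.709). AJUBA held 2.43% to 6.10% of the level per kilobase of these 3 LIM genes in control and 16.1% to 17.9% in co-culture.

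LATS2 (chromosome 13, 20973032 to 21061547) had 3, 2 and 1 counts in control against 1 and 2 in co-culture, at the floor in both groups, so no fold is given. Its paralog LATS1 had 2591 to 3021 counts in control against 3464 and 2961 in co-culture. LATS1 rose by 0.37 on the log2 scale (edgeR adjusted p = 0.00838), a call lost with the replicate block (edgeR adjusted p = 0.0700) and without either co-cultured replicate.

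**Figure D2:**
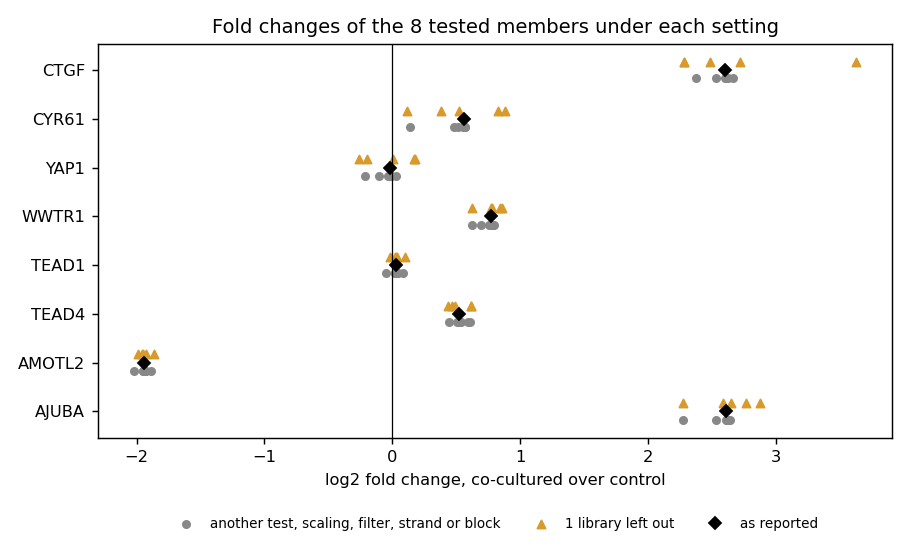
Log2 fold change (co-cultured over control, x axis) of the 8 tested genes as reported (diamonds), under another test, scaling, filter, strand or block (circles) and with 1 library left out (triangles). CTGF, AJUBA, WWTR1 and TEAD4 stay above 0 and AMOTL2 between -2.02 and -1.87 throughout, CTGF reaches 3.63 without control replicate 1, and YAP1 and TEAD1 fall on either side of 0.

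Ordered by mean level per kilobase in control cells, TEAD1 (63.5 CPM per kilobase) led AMOTL2 (5.73) and TEAD4 (3.54), whose libraries did not overlap one another. CYR61, WWTR1, YAP1 and CTGF followed at 0.302 to 0.374 CPM per kilobase, and their libraries overlapped. TEAD2 (0.112) overlapped CTGF above it and AJUBA (0.0898) below it, and LATS2 came last at 0.0192. In co-culture the order was TEAD1 (64.9), TEAD4 (5.08), CTGF (1.85) and AMOTL2 (1.49), with no overlap between neighbours. AJUBA, CYR61 and WWTR1 then lay together at 0.540 to 0.550 CPM per kilobase, above YAP1 (0.309), TEAD2 (0.0900) and LATS2 (0.0167).

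Of 22 genes of a published YAP/TAZ target signature, written from general knowledge, 17 could be tested. It includes CTGF, CYR61, LATS2 and AMOTL2. Genes of the list moved in both directions: 5 were higher, 6 lower and 6 not called, beside 18.4% and 15% of all genes. The median log2 fold change was 0.08, and the summed level was 328 to 338 CPM in control and 306 to 311 CPM in co-culture. Without co-cultured replicate 2 the counts were 3 higher and 3 lower. IGFBP3, which binds insulin-like growth factors, had 170, 143 and 161 counts in control against 549 and 317 in co-culture, and its log2 fold change was 1.6 (standard error 0.16, edgeR adjusted p = 0.000187). GADD45A, a stress-induced regulator of growth arrest, rose by 0.76 on the log2 scale (edgeR adjusted p = 0.000763). The other higher genes besides CTGF were F3, which encodes tissue factor, and CCDC80, with log2 fold changes of 1.65 and 1.07. FJX1, whose Drosophila counterpart is the Golgi kinase Four-jointed, went from 549, 467 and 595 counts to 194 and 211, with a fold change of -1.22 in log2 units (standard error 0.14, edgeR adjusted p = 0.000360). TGFB2, ARHGEF17, RBMS3 and MYOF were lower too, with log2 fold changes of -1.43, -1.39, -1.16 and -0.64. F3, CCDC80, TGFB2, ARHGEF17, RBMS3 and MYOF were named after their values were seen.

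ANKRD1, a target often read beside CTGF and CYR61, had 0 counts in every control and 1 and 0 in co-culture, and FOXF2 had 0 counts in all 5 libraries. AXL, a receptor kinase in the same list, had 29 and 17 counts in control replicates 1 and 2 and 0 in the other 3 libraries, with 37, 34, 12, 9 and 4 reads on its opposite strand, and was not called (edgeR adjusted p = 0.0581). RefSeq windows were at hand for 16 of the 22 target genes. The TEAD motif occurred in 8 of their 18 windows, beside 11.9% of all 35116 windows. The 8 were windows of CTGF, AMOTL2, ANKRD1, AXL, FOXF2, PTPN14, NUAK2 and TGFB2. Of these genes CTGF was called higher, AMOTL2 and TGFB2 were called lower, and the rest were not called or not tested.

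**Figure D3:**
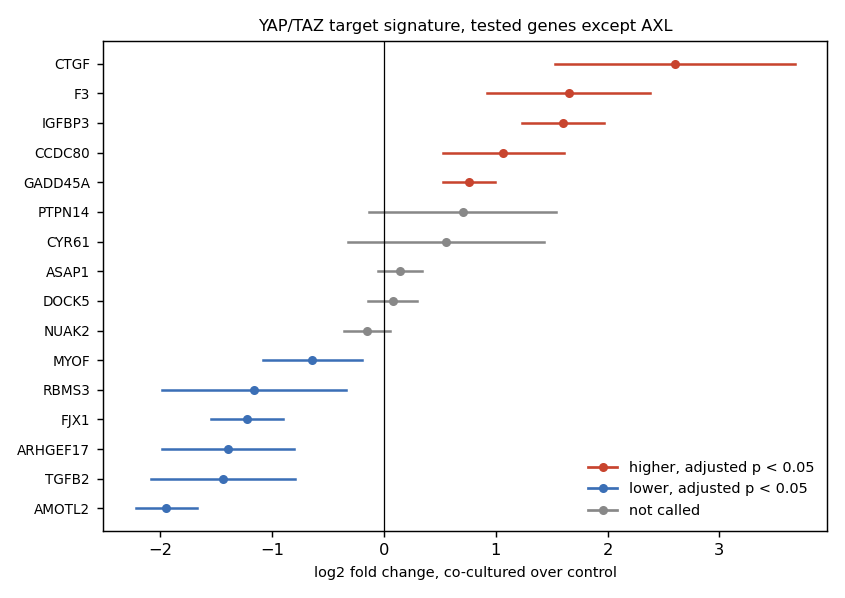
Log2 fold change (points) with its 95% interval (bars) for the tested genes of the YAP/TAZ target signature, colored by call, with AXL left out because its interval runs from -12.4 to -1.37. The 5 higher genes, led by CTGF, and the 6 lower genes, led by AMOTL2, lie on opposite sides of 0.

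Of 10 TEAD factors and cofactors, 6 could be tested. VGLL4, which competes with YAP1 for TEAD, rose from 19.9 ± 1.17 CPM (SD, n = 3) to 30.2 ± 4.87 CPM in the co-cultured libraries (SD, n = 2), a log2 fold change of 0.61 (edgeR adjusted p = 0.00524), lost without co-cultured replicate 1. VGLL1, VGLL2 and VGLL3 never passed 10 counts and were not tested.

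In the Hippo kinase core, 22 of 23 genes were tested, 7 were higher, 1 lower and 14 not called, beside 33.4% of all genes called. The median log2 fold change was 0.11, and the number called was 5 with the replicate block and 3 and 2 without co-cultured replicates 1 and 2. STK3 and STK4, the genes of the MST kinases, were not called, with log2 fold changes of 0.15 and 0.08. TNIK, a kinase of the MAP4K family, went from 531, 758 and 881 counts in control to 1557 and 1079 in co-culture (log2 fold change 1.03, standard error 0.17, edgeR adjusted p = 0.00211). STK38L, a relative of the LATS kinases, and WWC3, of the KIBRA family, rose by 0.58 and 0.46 on the log2 scale, and without co-cultured replicate 2 neither was called. TAOK2, named after its value was seen, was the lower gene (log2 fold change -0.33, edgeR adjusted p = 0.0415).

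Of 22 junction and LIM regulators, 20 were tested, with 7 higher, 2 lower and a median log2 fold change of 0.16, beside the same 33.4%. AJUBA and AMOTL2 are in this list and had its largest rise and fall. The number called was 5 with the replicate block, 2 and 4 without co-cultured replicates 1 and 2, and 4 without control replicate 2. Apart from AJUBA, AMOTL1 and LIMD1 had the smallest p among the higher genes, and LIMD1 was not called without co-cultured replicate 1 (edgeR adjusted p = 0.0803). The STRIPAK phosphatase complex, which dephosphorylates the MST kinases, had 6 of 12 genes higher and 6 not called, beside 18.4% of all genes higher, with a median log2 fold change of 0.24. CTTNBP2NL, STRN4 and PPP2CA rose by 0.46, 0.39 and 0.50 on the log2 scale, the last 2 lost without co-cultured replicate 2.

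CTGF is abundant in endothelial cells, so endothelial markers were read beside it. Of 24 markers, 10 never passed 3 counts, and 3 of these (MMRN1, PLVAP and ECSCR) had 0 counts in all libraries. PECAM1 had 14, 10 and 3 counts in control against 18 and 11 in co-culture, and CDH5 had 11, 8 and 4 against 7 and 11. Among the 10 tested, 2 were called higher and 8 were not called, beside 18.4% of all genes called higher. ESAM had 3, 4 and 6 counts against 21 and 14 (log2 fold change 2.14, edgeR adjusted p = 0.00666, lost without co-cultured replicate 1), and ICAM2 had 149, 126 and 154 against 186 and 161 (log2 fold change 0.45, edgeR adjusted p = 0.0367, lost in 9 of the 12 other settings). ESAM entered the test through its co-cultured libraries alone. FLT1 had 30, 28 and 0 counts in control against 1 and 1 in co-culture, with 44, 17, 6, 5 and 4 reads on its opposite strand (edgeR adjusted p = 0.0683). The summed level of the markers was 18.7 to 30.1 CPM in control and 24.3 to 24.9 CPM in co-culture, and 18.1 to 24.9 against 23.2 to 24.4 CPM without KDR, FLT1 and TEK, which had such reads on both strands. The part of endothelial RNA in the rise of CTGF was not tested.

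The genes whose profiles over the 5 libraries were most like that of CTGF, among 1593 protein-coding genes within 2-fold of its mean level, were PTGS2, ABCA12 and C2CD4A. The root mean square differences of their centred log2 CPM from that of CTGF were 0.32, 0.32 and 0.35. PTGS2, which encodes cyclooxygenase-2, had 17, 5 and 6 counts in control against 97 and 74 in co-culture. For ABCA12 94.1% of the reads in control lay on the opposite strand, and its log2 fold change of 2.94 was 0.20 with both strands counted. For CYR61, RSPH4A, KCNK1 and FAN1 were the nearest of 1505 genes, with differences of 0.11, 0.12 and 0.12, and none of these 3 was called by edgeR at an adjusted p under 0.05.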

How the data were processed

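RNA-Seq libraries of rRNA-depleted RNA were made with a directional kit from 3 control and 2 co-cultured samples. The authors deposited for each library raw read counts per gene in 3 columns, without regard to strand and for each strand. Their processing notes name CASAVA 1.8, STAR 2.6.1b, DESeq2 and GRCh38, without roles. A deposited table of the authors' own comparison (means, fold changes, p-values) served only to pair gene names with identifiers.

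Counts on the strand of the directional kit, which took 92.3% to 93.1% of reads assigned to either strand, were analysed with edgeR 4.0.16 in R 4.3.3. Genes were kept by filterByExpr (20360 kept), scaled by TMM and tested with glmQLFTest, with Benjamini-Hochberg adjustment over all of them. Totals of 15457071 to 19157348 counts limit genes of a few counts. Replicates of a group differed by 4.59 to 18.1 times the sampling variance of counts (chi-square per degree of freedom). Both pairs with control replicate 1 had high values (17.9 and 18.1), against 6.34 for control replicates 2 and 3 and 4.59 for the co-cultured pair. Without control replicate 1, 5295 genes were called higher and 4602 lower, against 3750 and 3059 with it. Rows that name no gene were left out of library sizes and tests. Reads counted on genes of that strand made up 30.7% to 33.6% of the reads of a library, and 8.13% to 16.8% were unmapped. Exon lengths came from GENCODE 29, and sequences from RefSeq (GRCh38.p14).

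The genes and lists were chosen with earlier results of these data known. Named were all 10 genes, the 3 genes of smallest p per list among those called, TEAD3, LATS1 and the 3 nearest profiles of CTGF and CYR61. Other genes of the lists were named after their values were seen. Some genes of the lists are counted but not reported here by name. As alternatives, DESeq2 1.42.0 replaced edgeR, the scaling was median-ratio or upper-quartile, and the others were filters of at least 1 count in any and at least 10 in every library, a replicate block, unstranded counts, the study's criterion and leaving out each library.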

Additional observations from a re-analysis of the deposited data

Results flagged for a closer look

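On the strand opposite to CTGF, TEAD1 and TEAD4, the CPM of both co-cultured libraries lay above that of every control. Among the fits, only that on unstranded counts uses these reads. On their own strand 29.4% of all genes tested lay above every control, and the share on the opposite strand was not computed. TEAD2, with 0 such reads in each control and 2 and 1 in co-culture, was too low to be flagged. For CTGF the mean level in co-cultured cells was 0.202 CPM, from 1, 2 and 1 such reads in control and 5 and 2 in co-culture. For TEAD1 it was 1.13 CPM, from 15, 14 and 18 reads against 22 and 16. For TEAD4 it was 0.225 CPM, from 1, 0 and 1 reads against 1 and 6, so that co-cultured replicate 2 held nearly all of them. The 1 read of TEAD4 in co-cultured replicate 1 (0.0546 CPM) lay above the 1 in control replicate 1 (0.0531 CPM) by library scaling alone. These counts are small and the differences were not tested.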

How the results depend on the processing

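Of the 10 genes, 4 were called higher and 1 lower. The number higher was 2 with a filter of at least 10 counts in every library, which removes CTGF and AJUBA, and 2 by the study's criterion, and it ranged from 2 to 4 with each library left out, while the number lower was 1 throughout. In the target signature the number higher (5) ranged from 3 to 7 and the number lower (6) from 3 to 6 with a library left out. Of the kinase core, 8 genes were called, 5 with the replicate block, 1 by the study's criterion and 2 to 11 with a library left out. Of the junction and LIM regulators, 9 were called, 5 with the block, 2 by that criterion and 2 to 13 with a library left out. When 1 co-cultured library is left out, the other is assumed to vary like the controls.

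The labels do not say whether same-numbered libraries were handled together. Deviations of such libraries correlated at -0.114 and -0.0670. The deviations of the co-cultured pair mirror each other. Each control therefore correlates with them at the same size and opposite sign (-0.114 and 0.114 for control replicate 1). For that reason these values cannot show whether the libraries were paired. With the block the calls over all genes went from 3750 higher and 3059 lower to 2771 and 2053. YAP1 turned to 0.026 with the block, and lay between -0.26 and 0.18 with a library left out. TEAD1 was -0.047 under upper-quartile scaling and -0.017 to 0.10 with a library left out, and FAN1 was -0.0017 to 0.72. That scaling turned the calls over all genes to 3076 higher and 3929 lower. Of 403 fold changes of named genes under alternatives, 360 kept direction and call, 36 lost the call and 7 changed sign. The cause was not tested. Genes of a few counts, such as TEAD2 and LATS2, are limited by depth.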
